A study of Mus musculus with 6 samples.

Results

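The 10 genes described here encode the TGF-β system upstream of its receptors and the receptors themselves: the ligands *Tgfb1*, *Tgfb2* and *Tgfb3*, the receptors *Tgfbr1*, *Tgfbr2* and *Tgfbr3*, and the latent TGF-β binding proteins *Ltbp1*, *Ltbp2*, *Ltbp3* and *Ltbp4*. They were chosen by symbol from the 28987 genes of the deposited table, and all 10 were present in it and passed the filter on low values. The libraries are 6 RNA-seq libraries of EGFP+ cells, which are activated cardiac fibroblasts, sorted from mouse ventricles 4 weeks after transverse aortic constriction (TAC), a narrowing of the aorta that loads the heart with pressure. In both groups the tamoxifen-dependent Cre recombinase MerCreMer sat in the *Postn* locus, a gene switched on in activated fibroblasts, and recombined an eGFP reporter at Rosa26. Per the labels, the mice were 8 to 10 weeks old at TAC, and tamoxifen was injected 2 times at 100 mg/kg and given in chow at 40 mg/kg. The study's methods give other doses for both, with the chow started before surgery. The 3 libraries labelled Hsp47-deleted (replicates 1, 2 and 3) came from mice that also carried loxP-flanked *Hsp47*, the gene for a collagen chaperone. The 3 control libraries (replicates 2, 3 and 4) came from mice in which only the reporter was recombined. The recombination is permanent, so the sort selects for cells in which the *Postn* locus was or had been active. The labels do not say whether a library holds 1 mouse or a pool, and the p-values measure the spread between these libraries. Control replicates 3 and 4 were sequenced in 1 run, called the first run here, and control replicate 2 and all Hsp47-deleted libraries in another, the second run. Values are listed in the order of the replicate numbers of each group.

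The TGF-β ligands are made as precursors whose propeptide stays wrapped around the ligand and keeps it inactive. LTBP1, LTBP3 and LTBP4 bind this latent complex and tether it to fibrillin and fibronectin in the extracellular matrix, whereas LTBP2 is a fibrillin-binding family member that does not carry the ligand. The freed ligand binds the type II receptor, which phosphorylates the type I receptor and through it SMAD2 and SMAD3, and in the injured heart this signal drives fibroblasts towards the myofibroblast state.

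Promoter windows, from 250 bases before to 50 after the RefSeq start site, were given for 8 of the 10 genes (12 windows, GRCm38.p6). *Tgfb3* and *Tgfbr3* were not among them. The windows of the ligands *Tgfb1* and *Tgfb2* are shown because the first of these genes separated the groups and the second did not, and those of *Ltbp1* and *Ltbp2* because they were the latent binding proteins with the lowest and the highest group difference. Capitals mark the letters CAGAC or their reverse complement GTCTG, a sequence that SMAD3 and SMAD4 bind. The windows run 5′ to 3′ along the gene's strand. Of the 2 windows of *Ltbp1*, the one at the annotated start of the gene is printed, and the other holds 2 matches of CAGAC.
*Tgfb1*, chr7:25686752-25687051, plus strand: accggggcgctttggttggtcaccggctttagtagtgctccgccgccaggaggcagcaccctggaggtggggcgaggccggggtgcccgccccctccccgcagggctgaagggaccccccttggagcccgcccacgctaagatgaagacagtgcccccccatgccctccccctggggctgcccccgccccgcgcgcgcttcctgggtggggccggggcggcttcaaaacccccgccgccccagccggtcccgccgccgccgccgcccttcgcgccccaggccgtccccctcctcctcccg
*Tgfb2*, chr1:186705940-186706239, minus strand: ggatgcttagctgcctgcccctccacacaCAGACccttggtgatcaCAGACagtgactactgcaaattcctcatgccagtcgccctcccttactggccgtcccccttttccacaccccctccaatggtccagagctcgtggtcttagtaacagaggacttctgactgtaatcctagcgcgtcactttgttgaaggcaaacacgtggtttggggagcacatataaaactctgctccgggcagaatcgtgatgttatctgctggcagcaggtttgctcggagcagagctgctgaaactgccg
*Ltbp1*, chr17:75005279-75005578, plus strand: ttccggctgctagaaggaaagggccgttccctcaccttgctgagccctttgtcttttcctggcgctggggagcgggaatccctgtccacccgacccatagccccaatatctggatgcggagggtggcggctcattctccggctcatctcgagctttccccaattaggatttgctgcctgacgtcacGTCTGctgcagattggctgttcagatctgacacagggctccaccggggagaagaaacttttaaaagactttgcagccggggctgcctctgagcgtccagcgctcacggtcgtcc
*Ltbp2*, chr12:84876442-84876741, minus strand: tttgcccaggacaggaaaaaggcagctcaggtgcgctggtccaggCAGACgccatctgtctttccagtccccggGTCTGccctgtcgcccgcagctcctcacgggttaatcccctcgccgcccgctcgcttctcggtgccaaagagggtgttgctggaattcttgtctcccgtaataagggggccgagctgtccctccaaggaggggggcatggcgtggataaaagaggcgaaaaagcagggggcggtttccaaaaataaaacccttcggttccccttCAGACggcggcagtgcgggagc
The *Tgfb1* window holds 77.0% G and C, 6 matches of GGGCGG (the GC box, searched on both strands) and no CAGAC. The *Tgfb2* window holds 54.3% G and C, no GC box, 2 matches of CAGAC, 1 of TATAAA (the TATA box) and 1 of CACGTG (the E box). The printed *Ltbp1* window holds 1 match of CAGAC and 1 of TGACGTCA (the cAMP response element), and the *Ltbp2* window 3 matches of CAGAC and 2 GC boxes. Of all 32851 windows of this length, 49.6% hold CAGAC, 35.7% a GC box, 13.6% TATAAA, 7.15% CACGTG and 1.79% TGACGTCA on either strand, and matches of different motifs were allowed to overlap. Among the windows not printed, that of *Ltbp3* holds 2 matches of CAGAC and no GC box. Those of *Ltbp4* hold no CAGAC and 3 to 9 GC boxes. The printed windows were chosen by the group differences of their genes. The letter matches only describe the windows, and whether they go with any value below was not tested.

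The values are log2(value + 1) as deposited. The linear unit behind them is not named and depth is unknown, so levels are compared between libraries and never between genes. In this bulk RNA, fewer cells of a type and less RNA per cell cannot be told apart. *Serpinh1*, the gene for Hsp47, had levels of 7.60, 6.28 and 6.10 in the controls, compared with 6.87, 6.67 and 6.66 in the Hsp47-deleted libraries. Its mean therefore differed by only 0.07 between the groups (adjusted p = 0.947, limma), while in the second run all 3 Hsp47-deleted libraries were below the single control, by a mean of 0.87. The transcript level thus does not separate the groups as labelled, and the groups are named by their labels throughout. The loxP sites target an exon, and whether a transcript without that exon is still counted here was not tested. The study reports by Western blot that Hsp47 protein was efficiently lost in sorted EGFP+ cells of the deleted genotype. Of the fibroblast markers, 10 of 10 were tested and the controls had summed linear levels of 10146 to 15883, compared with 16742 to 20616 for the Hsp47-deleted libraries. For the endothelial markers (8 of 8 tested), these ranges were 80.5 to 258 and 153 to 244, and for the cardiomyocyte markers (7 of 8 tested) 46.6 to 272 and 164 to 253. For the leukocyte markers (7 of 9 tested), they were 37.5 to 91.5 and 98.8 to 126, with *C1qa* listed at 0 in control replicates 3 and 4. The mural cell markers (7 of 7 tested) summed to between 170 and 290 in the controls and between 116 and 177 in the Hsp47-deleted libraries, and the mesothelial markers (1 of 4 tested) to between 1.37 and 6.09 and between 3.22 and 11.0. No marker passed an adjusted p of 0.05 except *Postn*, and the lowest fibroblast, endothelial, cardiomyocyte and leukocyte sums were those of the first-run controls. In the second run alone the median difference of the fibroblast markers was 0.15, beside 0.29 for all tested genes. The part of cells other than fibroblasts in the results below was not tested.

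Over all 10 genes, none passed an adjusted p of 0.05 in the comparison of the 6 libraries (limma), where 37 of 15109 tested genes did (0.245%). At an unadjusted p under 0.05, 5 of 10 genes were higher in the Hsp47-deleted libraries and none was lower, against 14.5% and 0.755% of all tested genes. *Tgfb1*, *Ltbp2*, *Ltbp3* and *Ltbp4* were higher in each Hsp47-deleted library than in every control, as were 18.3% of all tested genes, and no member was lower without overlap, as were 1.5% of all tested genes. The median difference of the 10 genes was 0.63 on the log2 scale, beside a median of 0.35 over all tested genes. Part of the shift was thus shared by the whole table, and with each library centred on its median the median of the 10 genes was 0.21 and that of all genes -0.06. In the second run alone, where 3 Hsp47-deleted libraries stand against 1 control without a test, 5 of 10 genes (*Tgfb1*, *Tgfbr1*, *Ltbp2*, *Ltbp3* and *Ltbp4*) were above that control in all 3 libraries, beside 46.7% of all tested genes, and 1 of 10, *Tgfbr2*, below it, beside 11.7%.

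**Figure D1:**
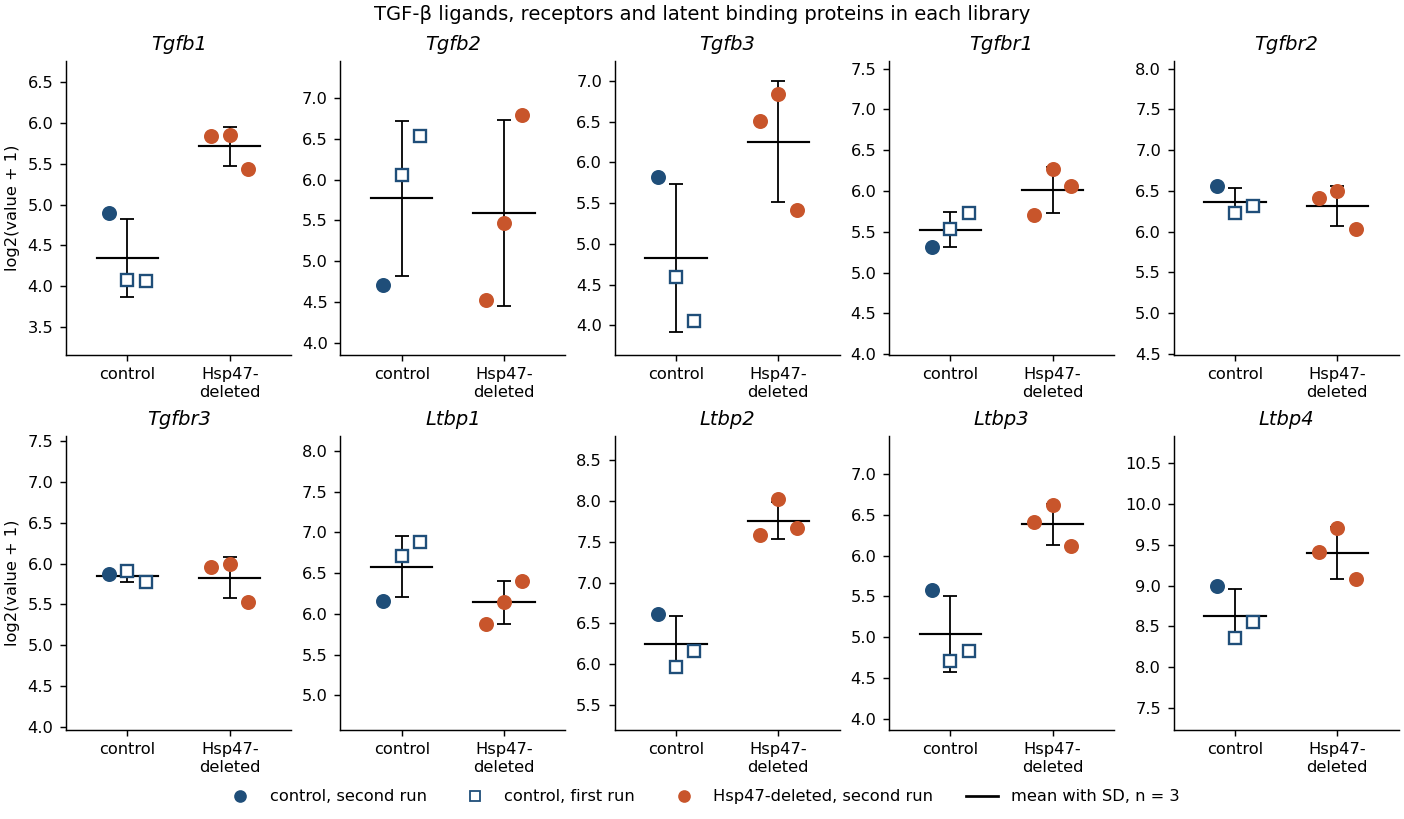
Each panel plots log2(value + 1), the level of 1 gene, in the 3 control and the 3 Hsp47-deleted libraries, with the mean and SD of each group. Open squares are the first-run controls and filled circles the second-run libraries. All panels span the same number of log2 units. The groups do not overlap for *Tgfb1*, *Ltbp2*, *Ltbp3* and *Ltbp4*, and for these genes the second-run control is the highest control.

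Among the ligands, *Tgfb1* and *Tgfb3* had higher means in the libraries labelled Hsp47-deleted, whereas *Tgfb2* varied more within each group than between them. *Tgfb1* (ENSMUSG00000002603, chromosome 7, 25687002 to 25705077, plus strand), the ligand most often linked to fibrosis, was at 4.90, 4.07 and 4.06 in the controls and at 5.84, 5.86 and 5.44 in the Hsp47-deleted libraries. The groups did not overlap, and the lowest Hsp47-deleted library was above the highest control. The mean was 4.34 ± 0.48 (SD, n = 3) in the controls and 5.71 ± 0.24 (SD, n = 3) in the Hsp47-deleted libraries, a ratio of 2.58 between the linear means. The log2 difference of 1.37 ± 0.34 (SE) had an unadjusted p of 0.0038 and did not pass the adjustment (adjusted p = 0.227, limma). Without control replicate 2 the difference was 1.65 and the adjusted p 0.0112, but that comparison sets first-run controls against second-run libraries, in which run and label cannot be told apart, and 18.3% of all tested genes were called in it. Against control replicate 2 alone, the 3 Hsp47-deleted libraries were higher by a mean of 0.82.

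*Tgfb2* (ENSMUSG00000039239, chromosome 1, 186622792 to 186705989, minus strand), a ligand expressed in cardiac development and by activated fibroblasts, was at 4.71, 6.06 and 6.54 in the controls. In the Hsp47-deleted libraries it was at 4.52, 5.47 and 6.79. Each group thus held a library under 5 and a library above 6.5, and the groups overlapped over nearly their whole range. The means were 5.77 ± 0.95 and 5.59 ± 1.14 (SD, n = 3 each). The difference of -0.18 ± 0.66 (SE) did not pass the test (adjusted p = 0.913, limma), with an interval from -1.71 to 1.36 on both sides of 0. Its sign depended on the libraries compared, since the Hsp47-deleted libraries were a mean of 0.88 above control replicate 2 and a mean of 0.70 below control replicates 3 and 4. By RT-PCR, the study reports higher *Tgfb2* and *Furin* mRNA in sorted EGFP+ cells of the deleted genotype.

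*Tgfb3* (ENSMUSG00000021253, chromosome 12, 86056745 to 86079041, minus strand), the third mammalian ligand, was at 5.82, 4.60 and 4.05 in the controls and at 6.51, 6.83 and 5.42 in the Hsp47-deleted libraries. Hsp47-deleted replicate 3 fell below control replicate 2, so the groups overlapped. The means were 4.82 ± 0.91 and 6.25 ± 0.74 (SD, n = 3 each), a ratio of 2.60 between the linear means. The difference was 1.43 ± 0.55 (SE) with an unadjusted p of 0.0314 (adjusted p = 0.306, limma). Without control replicate 2 it was 1.93 with an adjusted p of 0.0293, with the same confounding of run and label. Within the second run the difference was 0.43, and 2 of 3 Hsp47-deleted libraries were above the control. Exons of *Tgfb3* overlap those of the transcripts Gm37804 (163 bases) and Gm48008 (257 bases) on the other strand, and exons of *Tgfb2* overlap those of Gm29491 (124 bases). The library kit does not mark strand, so reads in these stretches cannot be told apart.

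Among the receptors, no gene passed an unadjusted p of 0.05. *Tgfbr1* (ENSMUSG00000007613, chromosome 4, 47353222 to 47414931, plus strand), the type I receptor kinase, was at 5.31, 5.53 and 5.73 in the controls and at 5.71, 6.27 and 6.06 in the Hsp47-deleted libraries. Hsp47-deleted replicate 1 lay just below control replicate 4, and the other Hsp47-deleted libraries lay above all controls. The difference was 0.49 ± 0.29 (SE; adjusted p = 0.433, limma), and it was 0.70 within the second run, where all 3 Hsp47-deleted libraries were above the control. *Tgfbr1* was the only receptor with both first-run controls above the second-run control.

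*Tgfbr2* (ENSMUSG00000032440, chromosome 9, 116084293 to 116175360, minus strand), the type II receptor that binds the ligand first, was at 6.55, 6.23 and 6.31 in the controls and at 6.41, 6.50 and 6.03 in the Hsp47-deleted libraries. All 6 values lay within 1 log2 unit. The difference was -0.05 with a 95% interval from -0.71 to 0.60 (adjusted p = 0.941, limma). *Tgfbr3* (ENSMUSG00000029287, chromosome 5, 107106570 to 107289629, minus strand), the coreceptor betaglycan, was at 5.88, 5.91 and 5.77 in the controls and at 5.96, 5.99 and 5.53 in the Hsp47-deleted libraries. It had the smallest SD of the 10 genes in the controls, 0.08, and its difference was -0.02 with an interval from -0.66 to 0.61 (adjusted p = 0.973, limma). Relative to the median of all tested genes, *Tgfbr2* was lower by 0.41 and *Tgfbr3* by 0.38 on the log2 scale, and Hsp47-deleted replicate 3 had the lowest value of both receptors. Exons of *Tgfbr3* overlap 297 bases of the transcript Gm43422 on the same strand.

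Among the latent binding proteins, *Ltbp2*, *Ltbp3* and *Ltbp4* were higher without overlap in the Hsp47-deleted libraries, and *Ltbp1* had a lower mean. *Ltbp2* (ENSMUSG00000002020, chromosome 12, 84783212 to 84876532, minus strand) had the smallest p of the 10 genes. It was at 6.62, 5.97 and 6.16 in the controls and at 7.59, 8.02 and 7.67 in the Hsp47-deleted libraries. The lowest Hsp47-deleted library was nearly 1 log2 unit above the highest control. The means were 6.25 ± 0.33 and 7.76 ± 0.23 (SD, n = 3 each), a ratio of 2.84 between the linear means. The difference of 1.51 ± 0.30 (SE) had an unadjusted p of 0.0012 and an adjusted p of 0.142 (limma). The adjusted p was 0.0088 without control replicate 2, with the same confounding of run and label and 18.3% of all tested genes called. Within the second run the difference was 1.14, the largest of the 10 genes. With sequencing run as a covariate *Ltbp2* was the only member below an unadjusted p of 0.05, at 0.0101, with an adjusted p of 0.514 (limma).

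*Ltbp3* (ENSMUSG00000024940, chromosome 19, 5740904 to 5758532, plus strand), which binds latent TGF-β and whose loss affects bone and teeth, was at 5.58, 4.71 and 4.83 in the controls and at 6.41, 6.62 and 6.12 in the Hsp47-deleted libraries. The second-run control was the nearest to the Hsp47-deleted libraries but below all of them. The difference was 1.34 ± 0.34 (SE), with an unadjusted p of 0.0041 (adjusted p = 0.235, limma). It was 0.81 within the second run. The adjusted p was 0.0118 without control replicate 2, again with run and label confounded. Exons of *Ltbp2* overlap 764 bases of the antisense transcript D030025P21Rik.

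*Ltbp4* (ENSMUSG00000040488, chromosome 7, 27305136 to 27337692, minus strand), which also organises elastic fibres, was at 8.99, 8.35 and 8.55 in the controls and at 9.41, 9.71 and 9.08 in the Hsp47-deleted libraries. The gap between the groups was narrow, from 8.99 in control replicate 2 to 9.08 in Hsp47-deleted replicate 3. The difference was 0.77 ± 0.33 (SE), with an unadjusted p of 0.0483 (adjusted p = 0.324, limma), and was 0.41 within the second run. *Ltbp1* (ENSMUSG00000001870, chromosome 17, 75005568 to 75392512, plus strand), the first described carrier of latent TGF-β1, was at 6.16, 6.71 and 6.88 in the controls and at 5.88, 6.14 and 6.41 in the Hsp47-deleted libraries. The values overlapped because control replicate 2 lay among the Hsp47-deleted libraries. Its difference was -0.44 ± 0.32 (SE; adjusted p = 0.508, limma) with all 6 libraries and -0.01 within the second run.

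**Figure D2:**
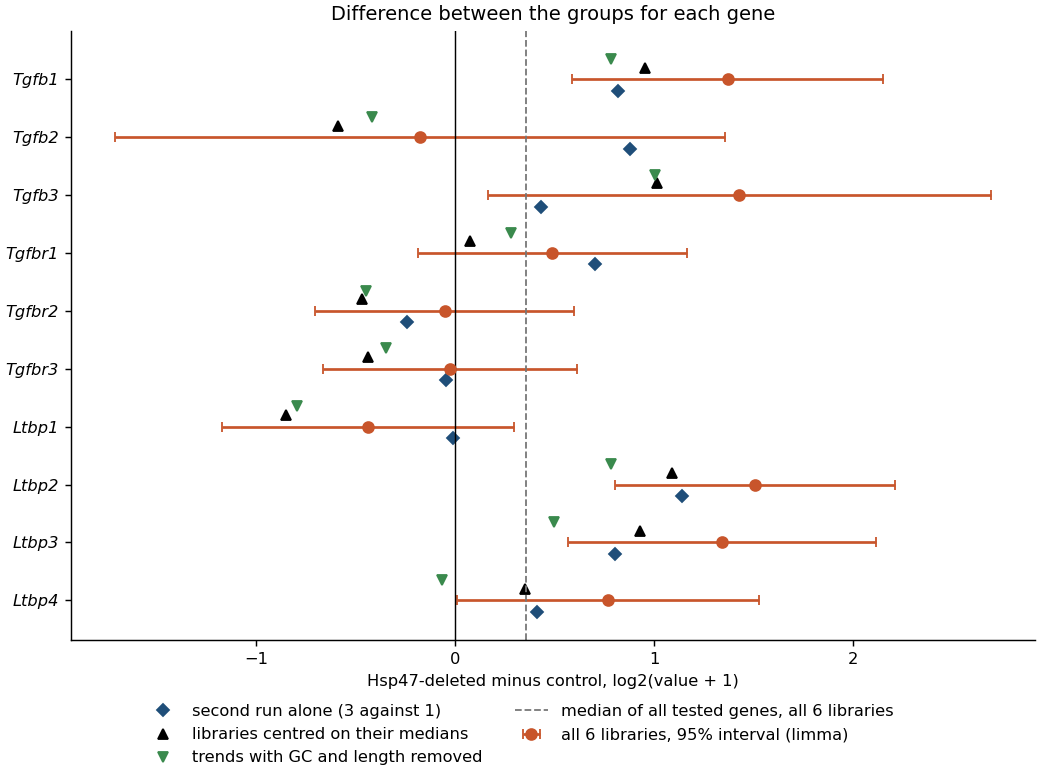
The horizontal axis is the difference between the groups (Hsp47-deleted minus control) in log2(value + 1), with 1 line per gene. Circles with bars give the comparison of all 6 libraries with its 95% interval, diamonds the second run alone, upward triangles libraries centred on their medians and downward triangles values with the trends with GC content and length removed. *Ltbp2* was at 1.51, 1.14, 1.09 and 0.79 in that order, while *Ltbp4* went from 0.77 to -0.07 and *Tgfb2* was above 0 only in the second run alone.

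A factor that scales a whole library cancels in the difference between a pair of genes in the same library, at levels well above the pseudocount. The 12 pairs of genes with the same role were compared this way with a two-sided exact permutation test, for which 3 libraries against 3 give a p of 0.10 at the smallest. *Ltbp2* minus *Ltbp4* was -2.37, -2.38 and -2.39 in the controls and -1.82, -1.69 and -1.41 in the Hsp47-deleted libraries. The controls of both runs thus lay within 0.02 of each other, and *Ltbp2* was higher relative to *Ltbp4* by 0.74 in all 6 libraries (exact p = 0.10, 0.30 over the 12 pairs) and by 0.73 in the second run alone. *Ltbp3* minus *Ltbp4* was -3.41, -3.64 and -3.72 in the controls and -2.99, -3.09 and -2.96 in the Hsp47-deleted libraries. The groups did not overlap and differed by 0.57 (exact p = 0.10), and by 0.39 in the second run.

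*Ltbp1* minus *Ltbp2* was -0.46, 0.74 and 0.71 in the controls and -1.71, -1.88 and -1.26 in the Hsp47-deleted libraries. The difference between the groups was -1.95 with all libraries (exact p = 0.10) and -1.15 in the second run alone. *Ltbp1* minus *Ltbp3* likewise differed by -1.78 without overlap (exact p = 0.10), and by -0.82 in the second run. *Ltbp2* minus *Ltbp3* differed by 0.17 (exact p = 0.40) with overlapping groups, and ranged from 1.04 to 1.55 over the 6 libraries. Each of these p-values was 0.30 or higher after adjustment over the 12 pairs. The design cannot reach a smaller p than 0.10 for 1 pair.

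The ligands showed the widest spread. *Tgfb2* minus *Tgfb3* was -1.11, 1.46 and 2.49 in the controls and -1.99, -1.36 and 1.37 in the Hsp47-deleted libraries. The difference was above 0 in both first-run controls and in Hsp47-deleted replicate 3 and below 0 in the other 3 libraries. Both first-run controls lay above every second-run library. The groups overlapped. The group difference was -1.61 with all libraries (exact p = 0.20) and 0.45 in the second run alone. *Tgfb1* minus *Tgfb3*, by comparison, differed by -0.06 (exact p = 0.80). Among the receptors, *Tgfbr1* minus *Tgfbr3* differed by 0.51 (exact p = 0.20) and *Tgfbr1* minus *Tgfbr2* by 0.54 (exact p = 0.30), but *Tgfbr2* minus *Tgfbr3* differed by -0.03 (exact p = 0.80) and lay between 0.31 and 0.68 in all 6 libraries.

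**Figure D3:**
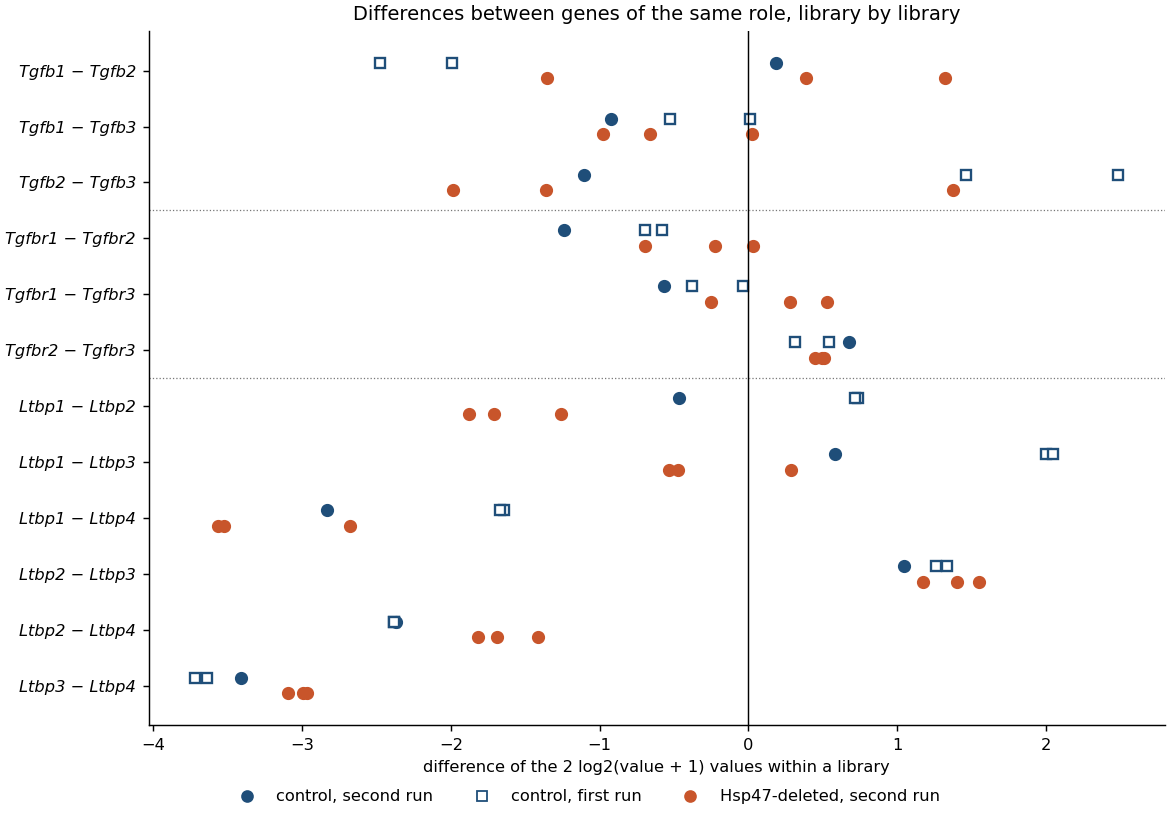
The horizontal axis is the log2(value + 1) of the first gene minus that of the second in the same library, for 12 pairs of ligands, receptors and latent binding proteins. Blue symbols are controls (open squares, first run) and orange circles Hsp47-deleted libraries. The 3 controls coincide near -2.4 for *Ltbp2* minus *Ltbp4*, below all Hsp47-deleted libraries, and the ligand pairs with *Tgfb2* spread over more than 3 log2 units.

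With all libraries, the group difference of the members tended to be larger at higher GC content of their transcripts, but its sign did not follow GC content. *Tgfbr1*, with the lowest GC content (48.0%), had a difference of 0.49, and *Ltbp1* (51.8%) one of -0.44. The 4 genes that were higher without overlap had mean transcript GC contents of 54.7 to 61.2%, and the other 6 of 48.0 to 53.0%. Over all tested genes in 20 bins of GC content, the median difference between the groups went from 0.03 in the lowest bin to 0.88 in the highest. Within the second run alone it stayed between 0.22 and 0.37 in all bins, and between the controls of the second and the first run it went from -0.33 to 0.97. Over the 10 genes, the Pearson correlation of GC content with the group difference was 0.62 with all libraries and 0.28 in the second run alone, as a description over 10 genes that share the same libraries. The Spearman correlations were 0.61 and 0.16. With the trends with GC content and length removed in each library, an alternative added after seeing the data, *Tgfb3* was at 1.01, *Ltbp2* at 0.79, *Tgfb1* at 0.78 and *Ltbp3* at 0.50, *Ltbp4* was at -0.07 and *Ltbp1* at -0.80. At an unadjusted p under 0.05, *Tgfb1* and *Ltbp2* were then higher and *Ltbp1* lower. In the same fit 583 of 14783 tested genes were higher and 527 lower (7.51% in all). No member passed the adjustment.

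**Figure D4:**
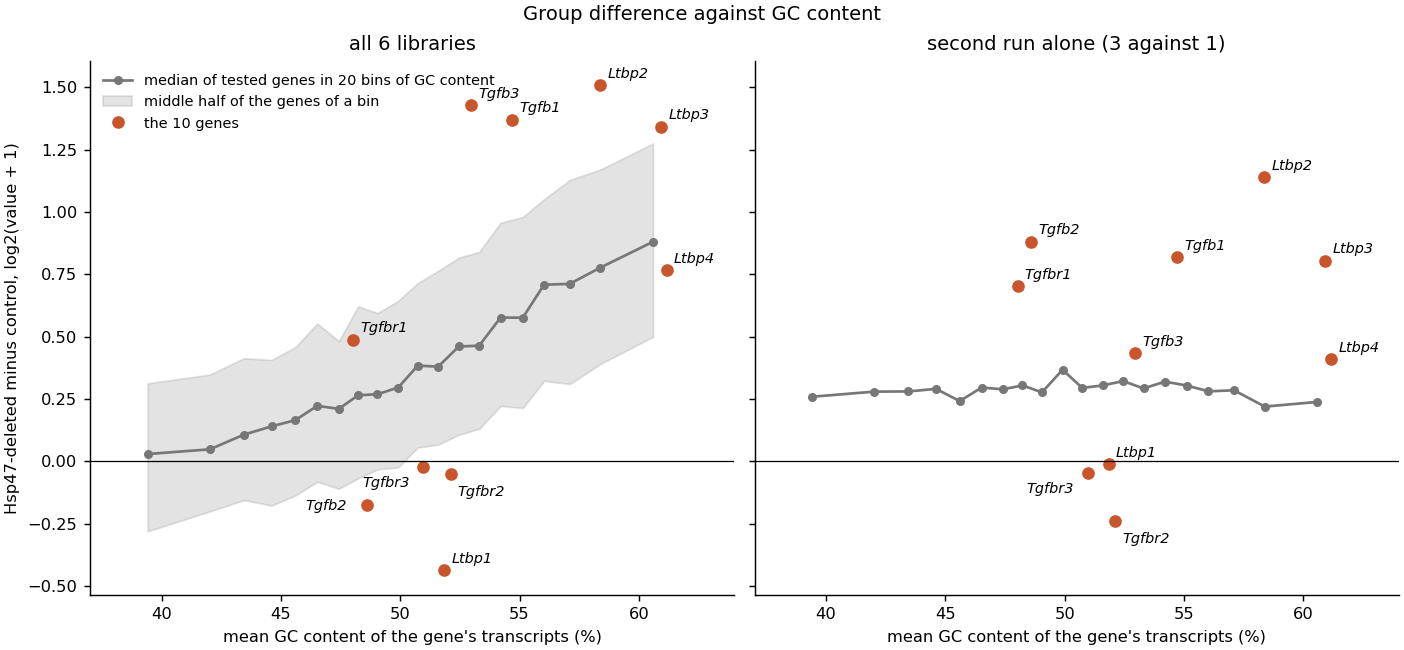
The horizontal axis is the mean GC content of a gene's transcripts in percent and the vertical axis the group difference in log2(value + 1), with all 6 libraries on the left and in the second run alone on the right. Grey points are medians over bins of tested genes, the grey band holds the middle 50% of a bin (left panel only), and orange points are the 10 genes. The grey line climbs to 0.88 on the left and stays between 0.22 and 0.37 on the right, and *Ltbp2*, *Ltbp3*, *Tgfb1*, *Tgfb3* and *Tgfbr1* lie above it in both panels.

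The other genes of the pathway were followed in 6 lists of 59 tested genes in all (59 of the 62 listed). Of these, 3 rose at an adjusted p under 0.05 and none fell, beside 0.245% of all tested genes called. At an unadjusted p under 0.05, 14 were higher and none was lower, beside 14.5% and 0.755% of all tested genes. With the run as covariate 15 were higher and 2 lower, beside 825 and 192 of all 15109 tested genes (6.73% in all). Their median difference was 0.53, beside 0.35 for all tested genes. The lists were chosen with earlier results of these data known.

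Of the genes that hold latent TGF-β in the matrix or bind it there, 4 of 10 tested were higher at an unadjusted p under 0.05, beside 14.5% of all tested genes. The median was 0.61, and 0.19 with libraries centred on their medians. *Fmod*, the collagen- and TGF-β-binding proteoglycan fibromodulin, was at 6.45, 6.19 and 6.82 in the controls and at 8.50, 9.04 and 9.17 in the Hsp47-deleted libraries. It rose by 2.42 (adjusted p = 0.0485, limma), and by 2.45 in the second run alone. Its adjusted p was 0.108 with the run as covariate and 0.105 to 0.279 with any library but control replicate 2 left out (limma). With the trends with GC content and length removed it was 0.199. The call was lost in these fits, with centring and with the replicate block, where no gene was called. *Emilin1*, a matrix glycoprotein that limits the processing of the TGF-β precursor, was at 5.36, 4.67 and 4.94 in the controls and at 6.95, 7.48 and 6.79 in the Hsp47-deleted libraries, without overlap (difference 2.08, adjusted p = 0.0698, limma). The other genes of the 4 were *Aspn* (0.98) and *Fn1* (0.86), named after their values were seen. *Tgm2*, chosen likewise, was the only gene of the list with a negative difference. It was at 5.28, 4.85 and 4.98 in the controls and at 4.84, 4.67 and 4.27 in the Hsp47-deleted libraries, without overlap. The difference was -0.45 (adjusted p = 0.475, limma), and -0.69 in the second run alone. It was -0.86 with centring (unadjusted p = 0.0161, limma). With the trends with GC content and length removed it was -1.18 (unadjusted p = 0.0019, adjusted p = 0.272, limma).

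Of the genes that activate latent TGF-β, 4 of 14 tested were higher at an unadjusted p under 0.05, beside 14.5% of all tested genes, and none passed the adjustment. This count was 0 with centring (8.21% of all tested genes, in either direction) or quantile normalization (8.37%). It was 1 with the trends with GC content and length removed (7.51%). The median was 0.66, and 0.24 with centring. *Mmp2*, a gelatinase, was at 8.45, 8.38 and 8.22 in the controls and at 9.28, 9.62 and 9.35 in the Hsp47-deleted libraries (difference 1.07, adjusted p = 0.252, limma). *Furin*, the protease that cleaves the TGF-β precursor, was at 3.94, 3.91 and 4.14 in the controls and at 4.71, 5.13 and 5.03 in the Hsp47-deleted libraries. It was higher in each Hsp47-deleted library (difference 0.96, adjusted p = 0.276, limma), by 1.02 in the second run alone. *Bmp1* (1.15) and *Plat* (0.90) complete the 4 and were named after their values were seen.

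Of the receptor partners, 1 of 8 tested was higher at an unadjusted p under 0.05, a share near the 14.5% of all tested genes. None was with centring, quantile normalization or the run as covariate, beside 8.21%, 8.37% and 6.73% of all tested genes in either direction. The median was 0.24, and -0.17 with centring. This was *Eng*, the endothelial-enriched coreceptor endoglin, at 6.51, 5.12 and 5.06 in the controls and 7.18, 7.22 and 6.35 in the Hsp47-deleted libraries (difference 1.36, adjusted p = 0.291, limma). *Acvrl1*, the endothelial type I receptor ALK1, was at 4.67, 3.97 and 2.10 in the controls and at 5.01, 4.89 and 4.12 in the Hsp47-deleted libraries (difference 1.09, adjusted p = 0.424, limma). Both had their lowest values in the first-run controls, as did the endothelial marker sum, and against the second-run control the differences were 0.41 and 0.00.

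None of the 3 SMAD mediators passed an unadjusted p of 0.05. *Smad4*, the shared partner of the receptor-activated SMADs, had a difference of 0.60 (adjusted p = 0.340, limma). It was higher without overlap, as were 18.3% of all tested genes. *Smad2* had a difference of 0.32 (adjusted p = 0.632, limma). *Smad3* had one of -0.19 (adjusted p = 0.846, limma) with all libraries and of 0.70 in the second run alone. Of the SMAD feedback genes and repressors, 2 of 10 were higher at an unadjusted p under 0.05, a share near the 14.5% of all tested genes. The count was 1 with centring and 0 with the trends with GC content and length removed. Of all tested genes, 8.21% and 7.51% passed in these fits, in either direction. *Smad7*, the inhibitory SMAD induced by TGF-β, was at 3.78, 3.04 and 3.21 in the controls and at 4.58, 5.22 and 4.39 in the Hsp47-deleted libraries (difference 1.39, adjusted p = 0.251, limma). *Ski*, a SMAD corepressor, had a difference of 0.80 (adjusted p = 0.323, limma). The median of the list was 0.40 with all libraries and -0.02 with libraries centred on their medians.

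Of the TGF-β response genes, 3 of 14 tested were higher at an unadjusted p under 0.05 and 2 passed the adjustment, beside 14.5% and 0.245% of all tested genes. With the run as covariate, 5 were higher and 2 lower (*Acta2* and *Tagln*), beside 825 and 192 of 15109 tested genes. Without control replicate 2 the count at this threshold was 8, in a fit where 35.1% of all tested genes passed. *Postn*, a matricellular protein whose locus carries the MerCreMer in both groups, was at 6.12, 5.87 and 5.86 in the controls and at 10.22, 10.50 and 10.36 in the Hsp47-deleted libraries, a rise of 4.41 (adjusted p = 0.00337, limma), which lost its call only with the replicate block (adjusted p = 0.187). *Cthrc1*, a secreted protein induced by TGF-β, was at 3.82, 4.00 and 4.28 in the controls and at 5.996, 6.10 and 6.06 in the Hsp47-deleted libraries, a rise of 2.02 (adjusted p = 0.0485, limma). This call was lost with the run as covariate (adjusted p = 0.0681, limma) and with any library but control replicate 2 left out (0.158 to 0.285). It was lost too with the trends with GC content and length removed (0.0916), with centring and with the replicate block, where no gene was called. The third gene was *Ctgf* (1.40, adjusted p = 0.160, limma), named after its values were seen. In the second run alone, 8 of the 14 were above the control in all 3 Hsp47-deleted libraries, beside 46.7% of all tested genes. The 4 genes *Tgfbi*, *Acta2*, *Tagln* and *Tgfb1i1*, named after their values were seen, were below it in all 3, beside 11.7% of all tested genes. The smooth muscle actin gene *Acta2* was at 6.68 in control replicate 2, at 4.56 and 4.22 in control replicates 3 and 4 and at 6.13, 5.60 and 5.65 in the Hsp47-deleted libraries, so its direction depended on which controls were used.

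**Figure D5:**
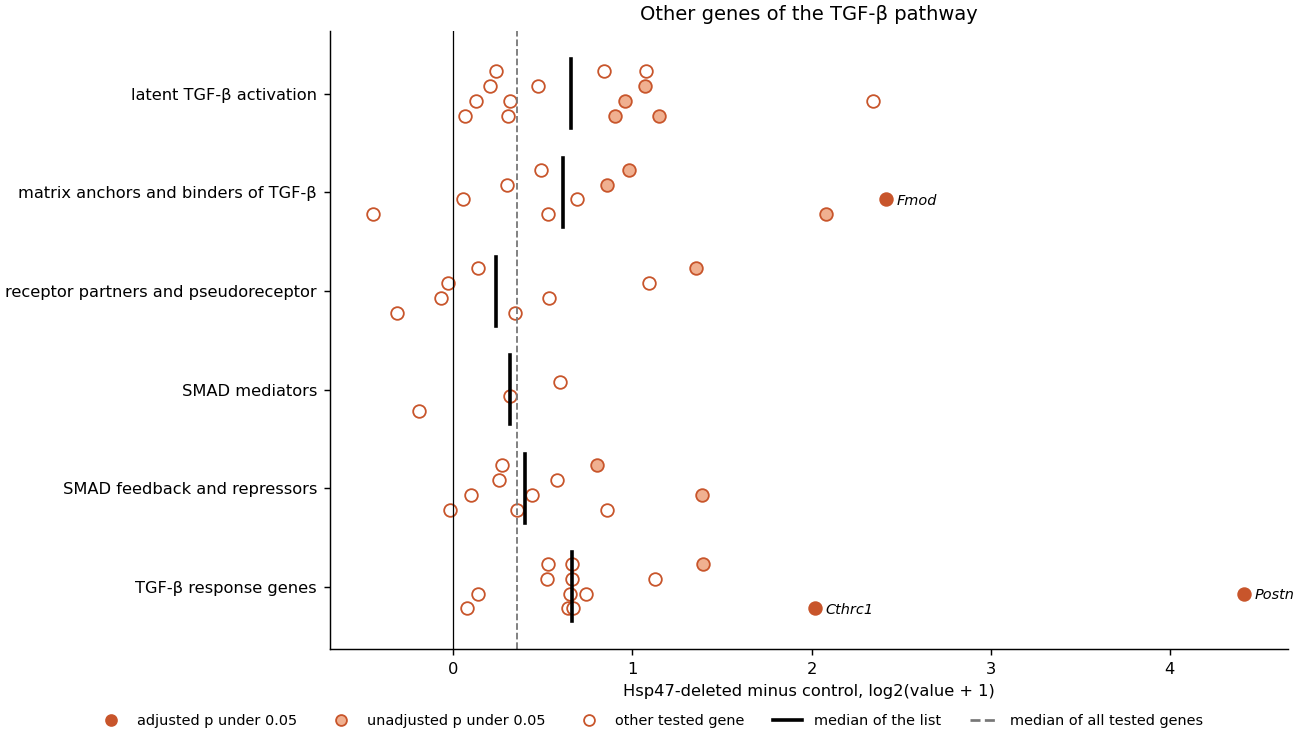
The horizontal axis is the group difference (Hsp47-deleted minus control, all 6 libraries) in log2(value + 1), with 1 point per tested gene and 1 row per list. Filled points passed an adjusted p of 0.05, pale points an unadjusted p of 0.05, black bars are the medians of the lists and the dashed line is the median of all tested genes at 0.35. *Fmod*, *Cthrc1* and *Postn* are the filled points, at 2.42, 2.02 and 4.41.

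For each member, the tested gene with the most similar pattern was taken by Pearson's r over the 6 libraries, as a description. *Ltbp2* was most like *Car8* (r = 0.998), *Ltbp3* most like *Khnyn* (r = 0.999), *Ltbp4* most like *Per1* (r = 0.998) and *Ltbp1* most like *Sptlc2* (r = 0.997). The ligands *Tgfb1*, *Tgfb2* and *Tgfb3* were most like *Idh3b* (r = 0.997), *Pum2* (r = 0.998) and *Ntn1* (r = 0.999). The receptors *Tgfbr1*, *Tgfbr2* and *Tgfbr3* were most like *Ccdc97* (r = 0.998), *Trim12c* (r = 0.991) and *Epdr1* (r = 0.984). *Pum2* followed *Tgfb2* from 4.91 in control replicate 2 and 4.83 in Hsp47-deleted replicate 1 to 6.20 in control replicate 4 and 6.36 in Hsp47-deleted replicate 3. Each r is the highest found in a search of the 15109 tested genes over only 6 libraries, which differ in sequencing run. Best matches were not computed for other genes, so these values do not single out the pairs.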

How the data were processed

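The deposited table gives 28987 genes as log2(value + 1) in 6 libraries, and the authors do not name its linear unit. RNA had been amplified (NuGEN Ovation) and libraries made with Nextera XT, which does not mark strand. The submitters' processing notes name kallisto and mm10, and the study names AltAnalyze; versions are not given in the sources used here. The linear values hold fractions (99.7% of those above 0 were not within 0.001 of a whole number), so they are not counts, depth is unknown and no count model was used. They summed to between 690499 and 855404 per library. The table also holds the authors' group means, fold changes and p-values, which were not used.

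Genes with a linear mean of at least 1 (15109; 13878 were left out) were fitted in limma 3.58.1 under R 4.3.3 (eBayes with trend, no covariate, Benjamini-Hochberg adjustment), tested on simulated data beforehand. Pairs of members were compared by exact permutation (scipy 1.17.1). Gene positions, length and GC content came from GENCODE M21 (GRCm38), and promoters from RefSeq. No member had a near-identical copy (minimap2 2.31-r1302, 95% identity over 80% of a transcript). This scale understates the fold change of low genes. The members and lists were chosen with earlier results of these data known. Named were all members, *Serpinh1*, the 2 genes of each list with the smallest p, genes at an adjusted p under 0.05, *Furin*, *Cthrc1* and the gene most like each member (symbols starting with Gm or mt-, or ending in Rik, left out). Any other gene in the text was chosen with its values in view. Alternatives were the run as covariate, the second run alone, the replicate block, no filter, a stricter filter (mean of 5 or more), pseudocounts of 0.1 or 5, centring, quantile normalization, other eBayes settings, each library left out and, added later, removal of trends with GC content and length (lowess, span 0.3).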

Additional observations from a re-analysis of the deposited data

How the results depend on the processing

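None of the 10 genes passed an adjusted p of 0.05 under any alternative except the one without control replicate 2, where 4 did (*Tgfb1*, *Tgfb3*, *Ltbp2* and *Ltbp3*), so the count ran from 0 to 4 over the libraries left out. The number of all genes called was 37 and became 16 with a pseudocount of 0.1, 18 with centring, 17 with quantile normalization, 14 with the trends with GC content and length removed and 0 with the replicate block, and ran from 8 (without Hsp47-deleted replicate 3) to 2768 (without control replicate 2) over the libraries left out. The number of members at an unadjusted p under 0.05 was 5, beside 15.2% of all tested genes. It became 1 with the run as covariate (6.73% of all tested genes) and 3 with centring (8.21%). It was 3 with the trends with GC content and length removed (7.51%) and 1 with both that removal and the run as covariate (5.11%). Over the libraries left out it ran from 3 to 6. The 6 came without control replicate 2, where 35.1% of all tested genes passed. The median difference of the members was 0.63 and became 0.21 with centring, 0.19 with quantile normalization, 0.11 with the trends with GC content and length removed and 0.28 with the run as covariate besides. The cause of these differences was not tested.

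The sign of *Tgfb2* turned from -0.18 to 0.88 with the run as covariate or in the second run alone, to 0.75 with the replicate block and to 0.58 with the trends removed and the run as covariate, and ran from -0.77 to 0.36 over the libraries left out. *Tgfbr2* ran from -0.15 to 0.088, *Tgfbr3* from -0.11 to 0.12 and *Serpinh1* from -0.21 to 0.54 over the libraries left out. *Ltbp4* turned to -0.067 with the trends removed. *Serpinh1* turned to -0.87 with the run as covariate or in the second run alone, -0.28 with the replicate block, -0.34 with centring, -0.27 with quantile normalization, -0.71 with the trends removed and -1.10 with the run as covariate besides. The shared replicate numbers 2 and 3 came with correlations of 0.16 and 0.23 of the libraries' deviations from their group means. These are only 2 pairs, 1 of which spans both runs, and the samples share only a number. The block left 4 members at an unadjusted p under 0.05, beside 10.2% of all tested genes, and none called.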
